A study of Caenorhabditis elegans with 15 samples.

Results

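The genes described here encode small GTPases of membrane trafficking, chosen as every gene whose single platform symbol begins with rab-, arf-, arl- or sar-. They numbered 30 of the 17118 genes that had a probe set of their own, with 20 Rab, 3 Arf, 6 Arl and 1 Sar gene. A further probe set that the annotation assigns to several symbols, among them arl-7, was left out. The 30 genes had 52 probe sets among the 22548 tested, and each gene was represented by the probe set with the highest mean over all arrays.

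RNA that came down with GLD-1, an RNA-binding protein of the STAR family that represses translation in the hermaphrodite germ line, was measured on Affymetrix arrays from whole young adult Caenorhabditis elegans. The tagged strain carried gld-1(q485), a mutant allele, together with ozIs2, a transgene for GLD-1 fused to GFP and FLAG; the promoter that drives the transgene is not given in the sources used here. It gave 3 arrays of total RNA before immunoprecipitation (IP), called input. In set 1 the same strain gave 3 IPs with anti-MYC, for which it has no tag, and 3 with anti-FLAG. The 2 groups of set 2, also of 3 arrays each, were anti-FLAG IPs from N2, the untagged wild type, and from the tagged strain. In strategy 1 the FLAG arrays of set 1 were set against the MYC arrays, and in strategy 2 the tagged arrays of set 2 against those of N2. The strategies share no array. N2 and the tagged strain also differ in genotype, and without an N2 input a difference between the strains in transcript level and a difference in recovery cannot be told apart in strategy 2. Nothing in the labels says that the replicates came from separate cultures, so p-values measure only the spread between these arrays.

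Rab and Arf family proteins act as switches. Bound to GTP they sit on a particular membrane and recruit coats, tethers and motors; exchange factors load them and GTPase-activating proteins turn them off. Sar and Arf proteins start vesicle coats, Rab proteins mark compartments and guide their fusion or recycling, and Arl proteins act at the Golgi, on lysosomes and in cilia. In the worm oocyte this machinery takes up yolk through the receptor RME-2 and returns the receptor to the surface.

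Values are log2 signals, so a change of 1 is a doubling of fluorescence. IP arrays carried much less worm signal than inputs. Each IP sample had also received 10 µg of mouse brain RNA. Its part in the IP signals, those of ribosomal protein genes included, was not tested. Each input array had 20 of the 30 genes at log2 5 or more, though not always the same genes. The counts were 0 to 5 on the MYC, 2 to 9 on the set 1 FLAG, 0 to 3 on the N2 and 8 to 10 on the tagged FLAG arrays of set 2. Ribosomal protein transcripts, a measure of background RNA in an IP, had array medians of 6.51 to 9.4 for MYC, 5.75 to 9.85 for FLAG of set 1, 6.73 to 7.81 for the tagged IP of set 2 and 6.44 to 7.98 for N2. Their median change was -0.03 in strategy 1 and 0.1 in strategy 2, with 0 of 75 called higher in either by limma. FLAG replicate 1 of set 1 was the dimmest tagged IP. For gld-1 itself, the tagged gene, the transcript was 44.7-fold and 46.8-fold higher in strategies 1 and 2 (limma adjusted p = 0.00231 and 0.000945). Markers of germ line, intestine, muscle and hypodermis all stood at log2 5 or more in input, as did 3 of 4 neuronal and 2 of 3 sperm markers; the neuronal rgef-1 and the sperm gene spe-9 did not. Of the neuronal markers, snb-1 and unc-119 were also called higher in strategy 2, as given below. In whole animals the cells that gave their input signal cannot be told apart. Precision is limited throughout by the number of arrays.

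Transcripts of rab-10, arl-8 and rab-14 passed the test as higher with the tag in both strategies, at 6.37- to 20.7-fold in strategy 1 and 7.71- to 40.0-fold in strategy 2, and those of rab-35 and rab-8 were higher in strategy 2, at 7.15- and 6.39-fold. They encode GTPases of recycling endosomes, lysosomes, phagosomes and traffic to the plasma membrane. No member grouped under ER, Golgi or cilia was called, although some were under other settings given below. Calls were rare over all genes too, at 2.44 and 5.56% in strategies 1 and 2. The 4 ciliary genes lay at the lowest values of every IP array. A missing call does not show that a transcript was not recovered. A call is an adjusted p under 0.05 from limma, with Benjamini-Hochberg adjustment over all 22548 probe sets.

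In counts, 3 of 30 genes were called higher in strategy 1, where 2.44% of all genes were, and 5 of 30 in strategy 2, where 5.56% were. All 3 of strategy 1 were among the 5 of strategy 2, so 3 were higher in both, against 2.36% of all genes. No member was called lower in either strategy, where 0.0701 and 0.169% of all genes were. Of the 52 probe sets 5 were called higher in strategy 1, 10 in strategy 2 and 5 in both, against 2.41, 5.47 and 2.33% of all probe sets, and 0 were called lower, against 0.0577 and 0.173%. Calls were more frequent among genes with a bright probe set in input. Of 15 members at log2 7 or more there, 3 and 4 were called in strategies 1 and 2, where 9.07 and 18.9% of 4059 such genes were called; 3 were called in both, against 8.84%. Over the 30 genes the changes had medians of 0.23 and 0.3, against -0.03 and -0.03 over all genes. Among the 15 bright ones it was 0.85 and 1.65, against 0.38 and 0.45 over all bright genes. Without FLAG replicate 1, 8 members were called higher and 1, rab-30, lower in strategy 1, and 7 higher in strategy 2; over all probe sets the calls of strategy 1 then rose from 543 to 2090 higher and from 13 to 442 lower. Without MYC replicate 1 or 2 or FLAG replicate 2 or 3 only arl-8 was called in strategy 1. Over all probe sets the higher calls of strategy 1 then fell to between 196 and 221. Strategy 2 called 7 without FLAG replicate 3, through the shared estimate of spread, and 3 without any one N2 replicate or tagged replicate 1. Its higher calls over all probe sets moved from 1233 to 1933 without FLAG replicate 1 and to 1499 without FLAG replicate 3. Without any one N2 replicate or tagged replicate 1 they fell to between 669 and 830. The member counts are small and are given as descriptions, and no test of the list was made. In the limma test of the difference between strategies 0 members were called, and 0 had an unadjusted p under 0.05.

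**Figure D1:**
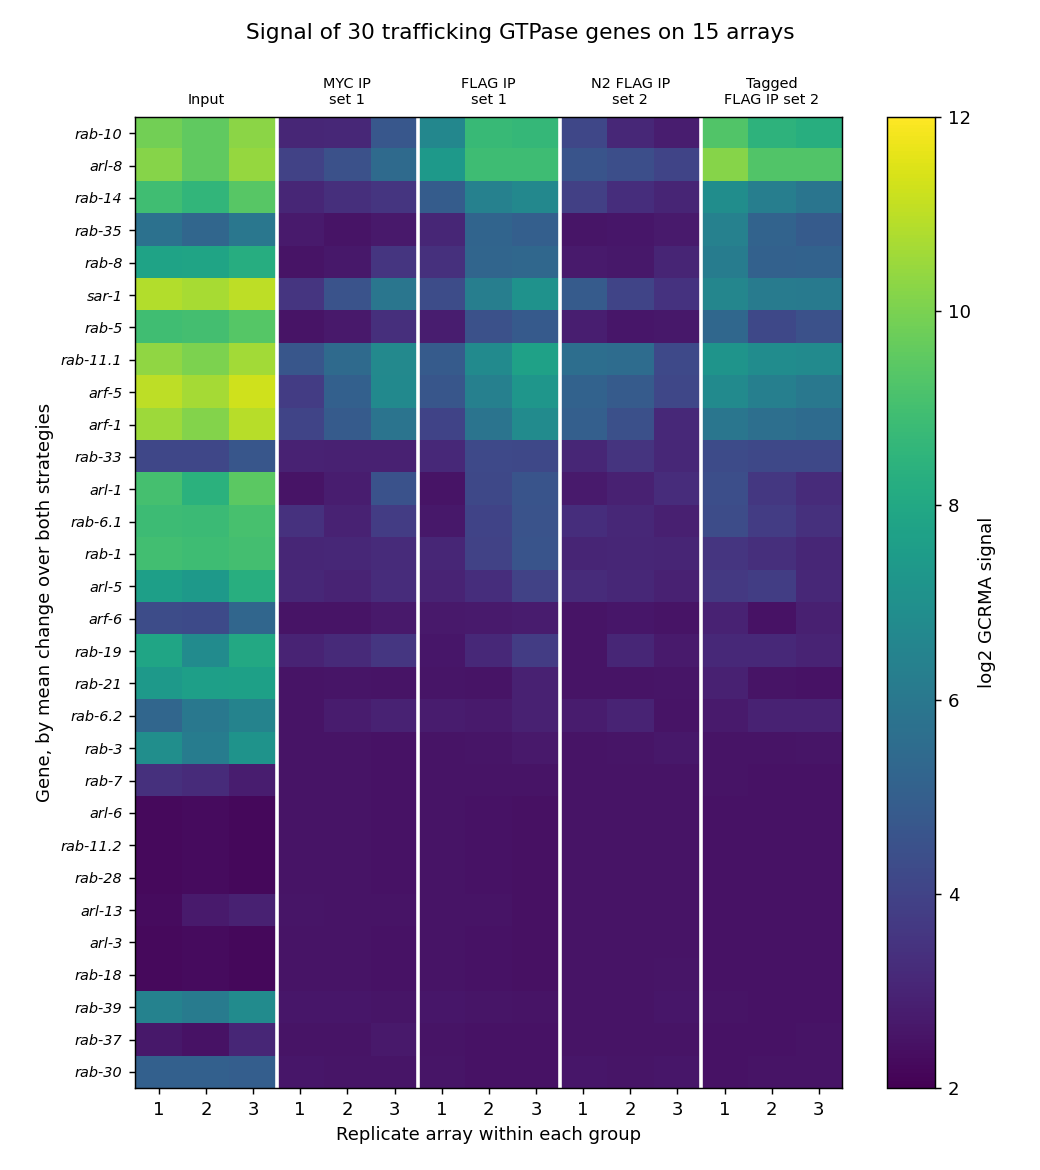
Heatmap of log2 GCRMA signal (colour, from 2 to 12) for the 30 genes (rows, ordered by mean change over both strategies) on the 15 arrays (columns, 3 replicates in each of 5 groups). The top 5 rows, from rab-10 to rab-8, are brighter on average in the tagged FLAG columns than in the MYC and N2 columns. For rab-8, FLAG replicate 1 of set 1 (3.39) lies below MYC replicate 3 (3.55). In all, 9 genes lie within 0.1 of the lowest value on all 12 IP arrays.

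**Figure D2:**
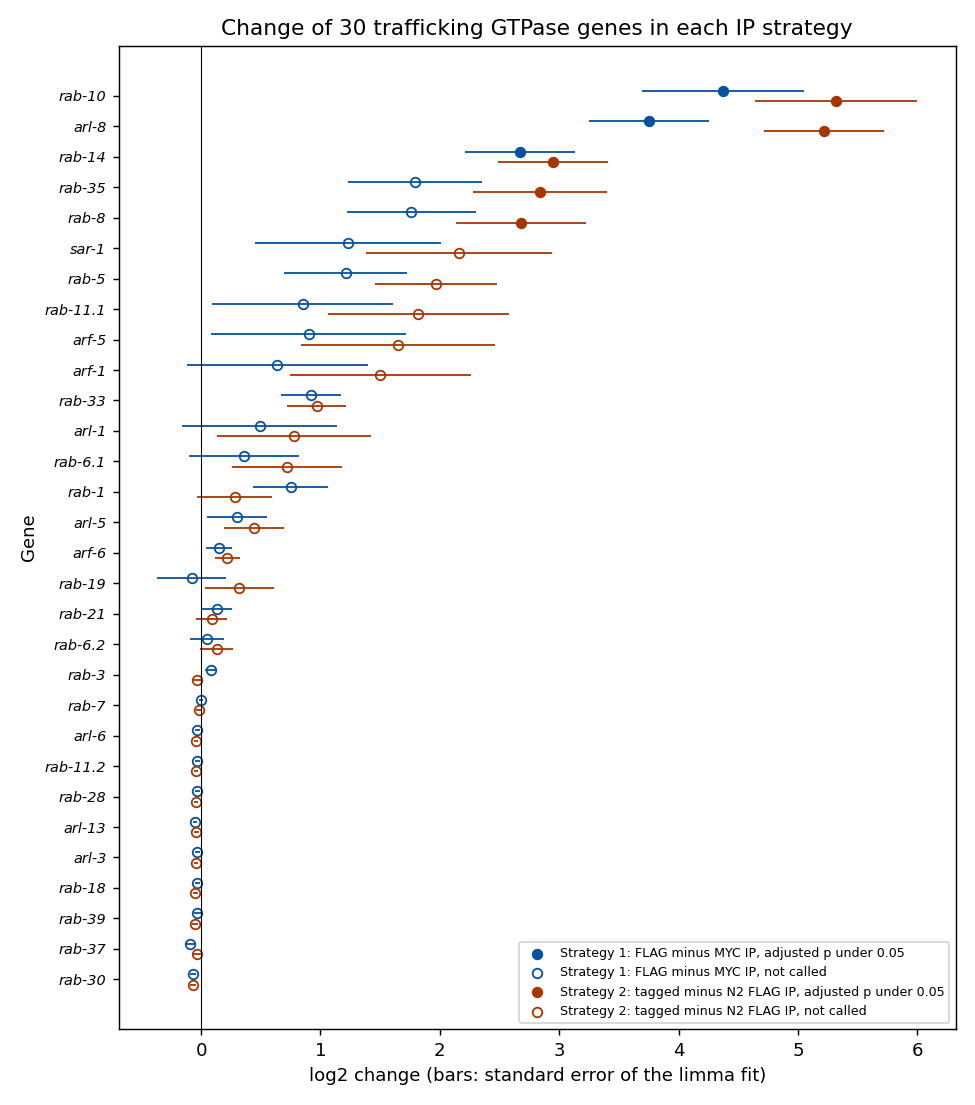
Log2 change of each of the 30 genes in strategy 1 (blue) and strategy 2 (brown), with standard errors of the limma fit as bars; filled points passed an adjusted p of 0.05. Filled points are the 3 genes called in strategy 1 and the 5 called in strategy 2, and no point was called below 0.

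The largest changes belonged to rab-10 (chromosome I, probe set 187873_s_at). RAB-10 returns cargo from endosomes to the basolateral surface of the worm intestine. Its signal in input was 9.88, 9.56 and 10.27. It was 3.07, 3.12 and 4.72 on the MYC arrays and 6.62, 8.74 and 8.65 on the FLAG arrays of set 1. In set 2 it was 4.12, 3.13 and 2.80 for N2 and 9.27, 8.46 and 8.28 for the tagged strain. Every FLAG IP of the tagged strain was above every control IP of its set, and the lowest, FLAG replicate 1, was still above the highest MYC array. The change was 4.37 ± 0.68 (SE) in strategy 1 (20.7-fold, adjusted p = 0.0125) and 5.32 ± 0.68 in strategy 2 (40.0-fold, adjusted p = 0.0025). After cyclic loess both changes were smaller, 2.1 and 2.18, and still called. The strategy 1 call ended without MYC replicate 1 or 2 or FLAG replicate 2 or 3, and with the 6 arrays of set 1 alone (adjusted p = 0.259), where 0 of all probe sets were called. The strategy 2 call held in each of its 22 alternatives. This is the only rab-10 probe set, and its suffix marks sequence shared between transcripts.

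The Arl gene called was arl-8 (chromosome IV, probe set 175174_s_at). ARL-8 sits on lysosomes and links them, and in neurons synaptic vesicle precursors, to kinesin transport. Its input signal was 10.19, 9.55 and 10.40. Among the IPs it was 3.98, 4.47 and 5.46 for MYC against 7.38, 8.88 and 8.91 for FLAG in set 1. In set 2 it was 4.61, 4.42 and 4.07 for N2 against 10.19, 9.30 and 9.28 for the tagged IP. Neither pair of groups overlapped. The change was 3.75 ± 0.502 in strategy 1 (13.5-fold, adjusted p = 0.00606) and 5.22 ± 0.502 in strategy 2 (37.4-fold, adjusted p = 0.00071). A second arl-8 probe set with no shared-sequence suffix, 191182_at, changed alike by 3.94 (adjusted p = 0.0195) and 5.57 (adjusted p = 0.00205). In the representative probe set the change shrank to 2.09 and 2.69 after quantile normalization, and to 1.02 (adjusted p = 0.311) and 1.47 (adjusted p = 0.0609) after cyclic loess, where neither was called. The strategy 1 call also ended with the 6 arrays of set 1 alone (adjusted p = 0.209). Leaving out any one array kept both calls.

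The third gene higher in both was rab-14 (chromosome X, probe set 174988_at), whose product acts in worm phagosome maturation. Input arrays read 8.92, 8.57 and 9.40. The IP signal was 3.09, 3.35 and 3.53 for MYC against 4.92, 6.39 and 6.68 for FLAG in set 1, and 3.90, 3.30 and 3.05 for N2 against 6.92, 6.28 and 5.89 for the tagged IP in set 2. The groups did not overlap in either set, with FLAG replicate 1 again the lowest of its group. The change was 2.67 ± 0.459 in strategy 1 (6.37-fold, adjusted p = 0.0192) and 2.95 ± 0.459 in strategy 2 (7.71-fold, adjusted p = 0.00612). The strategy 1 call ended without MYC replicate 1 or 2 or FLAG replicate 2 or 3, or with the 6 arrays of set 1 alone (adjusted p = 0.273). Centring on ribosomal protein genes ended both calls (adjusted p = 0.495 and 0.257) with changes of 2.69 and 2.8, close to those above, and a larger SE of 0.998. Cyclic loess left 1.11 (adjusted p = 0.0324) and 0.84 (adjusted p = 0.0725), and quantile normalization 1.39 and 1.11, both called. The 2 other rab-14 probe sets were dim in input, at 3.98 and 4.19. One of them, 189714_at, was called in both strategies with a change of 0.44 and 0.44, and the other, 189715_s_at, in neither (0.33 and 0.38).

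**Figure D3:**
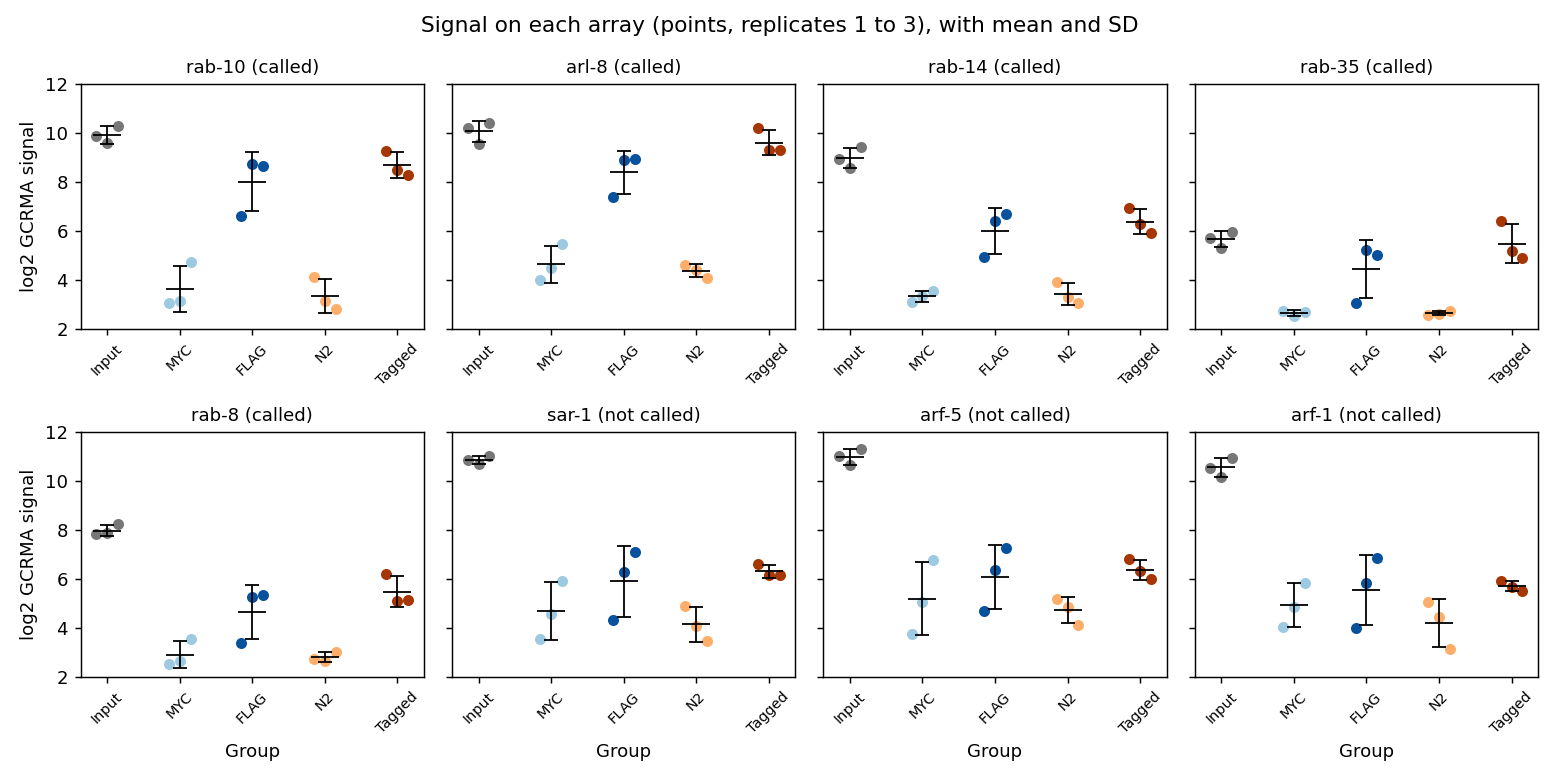
Log2 GCRMA signal of the 5 called genes and of the 3 uncalled genes with the brightest input probe sets, with points for replicates 1 to 3 in each group and bars for the mean and SD. For rab-10, arl-8 and rab-14 every FLAG IP of the tagged strain lies above every control IP of its set, whereas for sar-1, arf-5 and arf-1 the MYC and FLAG arrays overlap.

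Where control arrays lie near the lowest value of an array, 2.455 to 2.53 on the IP arrays, the size of a fold is limited by that value, as for the next genes. Both genes called in strategy 2 alone also act in recycling and delivery to the cell surface. RAB-35, also known as RME-5, returns the yolk receptor RME-2 from endosomes to the oocyte surface. The rab-35 transcript (chromosome III, probe set 184204_at) had signals of 2.57, 2.62 and 2.73 for N2 against 6.38, 5.17 and 4.89 for the tagged IP, a change of 2.84 ± 0.561 (7.15-fold, adjusted p = 0.0189). In set 1 it was 2.73, 2.52 and 2.70 for MYC against 3.06, 5.23 and 5.03 for FLAG, a change of 1.79 ± 0.561 (adjusted p = 0.205). Input read 5.72, 5.30 and 5.97. The groups did not overlap in either set, and FLAG replicate 1 stood close to the controls; without it the gene was also called in strategy 1. The difference of the strategies was -1.05, with a 95% interval of -2.85 to 0.75.

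RAB-8, grouped here under recycling and the plasma membrane, directs vesicles to that membrane and to the base of the cilium. The signal of rab-8 (chromosome I, probe set 173776_s_at) was 2.74, 2.63 and 3.03 for N2 against 6.19, 5.11 and 5.13 for the tagged IP, a change of 2.68 ± 0.541 (6.39-fold, adjusted p = 0.021). In set 1 it was 2.53, 2.64 and 3.55 for MYC against 3.39, 5.25 and 5.34 for FLAG, a change of 1.76 ± 0.541 (adjusted p = 0.196). Input read 7.81, 7.85 and 8.22. Set 2 groups did not overlap, but FLAG replicate 1 lay below MYC replicate 3, and without it rab-8 was called in strategy 1. The 2 other rab-8 probe sets, 173775_at and 174068_s_at, were called in strategy 2 as well (1.96, adjusted p = 0.0195, and 2.09, adjusted p = 0.0457). For rab-35 and rab-8 alike the strategy 2 call ended without any one N2 array, without tagged replicate 1 or 2, and after centring on ribosomal protein genes (adjusted p = 0.361 and 0.452), which left changes of 2.69 and 2.53 with larger SEs of 1.02 and 0.999. Under quantile normalization rab-35 changed by 1.85 and rab-8 by 1.54 in strategy 2, and under cyclic loess by 1.75 and 1.42, all of them called.

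The other endosomal GTPase genes divided. RAB-5 governs early endosomes, and its transcript (chromosome I, probe set 189793_at) was at 2.85, 2.61 and 2.63 for N2 against 5.33, 4.18 and 4.48 for the tagged IP, without overlap. It missed a call in both strategies, with changes of 1.21 ± 0.512 (adjusted p = 0.322) and 1.97 ± 0.512 (adjusted p = 0.0641). The second rab-5 probe set, 175459_at, passed in strategy 2, where it changed by 2.14 ± 0.402 (adjusted p = 0.0149); strategy 1 gave 1.22 (adjusted p = 0.235). The representative probe set was called in strategy 2 after quantile normalization (1.27, adjusted p = 0.0224) and cyclic loess (1.15, adjusted p = 0.0267). Centring on ribosomal protein genes left 1.82 ± 0.996 in strategy 2, which was not called. In strategy 1 it was not called under any of these scalings. In contrast rab-21, an endosomal Rab gene with 7.58 ± 0.159 (SD, n = 3) in input, had IP signals of only 2.49 to 2.93. Its changes were 0.13 and 0.09, with 95% intervals of -0.16 to 0.42 and -0.21 to 0.38. All its control arrays and most of its FLAG arrays of the tagged strain lay within 0.1 of the lowest value. The narrow intervals therefore give no measure of its recovery. The late endosome gene rab-7 read 3.15 in input and lay near the lowest values of all IP arrays; its second probe set read 3.10, so the array gives little information on it.

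Recycling through rab-11.1, whose product works at recycling endosomes and in cytokinesis, was not called. Its signals (probe set 194162_s_at) were 4.67, 5.45 and 6.72 for MYC against 4.87, 6.78 and 7.73 for FLAG in set 1, and 5.61, 5.52 and 4.22 for N2 against 7.19, 6.85 and 6.79 for the tagged IP. The set 1 groups overlapped widely, and the set 2 groups did not. The change was 0.85 ± 0.76 (adjusted p = 0.492) and 1.82 ± 0.76 (adjusted p = 0.144). The other probe sets, 175567_at and 190127_at, were called in neither strategy, with changes of 0.7 and 0.79 and of 0.09 and 0.03. The change of the representative probe set had a sign and a call that depended on the processing. It was called higher in strategy 2 from the 6 arrays of set 2 alone and with array weights, and centring on ribosomal protein genes left it positive, at 0.86 and 1.68. After quantile normalization it was -1.02 (adjusted p = 0.0299) and -0.75 (adjusted p = 0.083), and after cyclic loess -1.49 (adjusted p = 0.00626) and -1.41 (adjusted p = 0.00484). The paralogue rab-11.2 lay at the lowest value on input and IP arrays alike, so the pair cannot be compared. For arf-6, a plasma membrane Arf gene at 4.62 in input, the changes were 0.15 and 0.22 (adjusted p = 0.373 and 0.16).

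GTPases of the ER and Golgi formed the largest role group, and 0 of its 13 members were called in either strategy, although 2 in each had a positive change with an unadjusted p under 0.05 (rab-33 and rab-1, then rab-33 and sar-1). The probe sets brightest in input belonged here. SAR-1 starts the COPII coat at the ER, ARF-1 the COPI coat at the Golgi, and ARF-5 is a further Golgi Arf. The signal of sar-1 (chromosome IV, probe set 174066_at) was 3.54, 4.57 and 5.92 for MYC against 4.32, 6.28 and 7.11 for FLAG, and 4.88, 4.06 and 3.48 for N2 against 6.60, 6.17 and 6.14 for the tagged IP. Input arrays read 10.85 ± 0.166 (SD, n = 3) for sar-1, 10.98 ± 0.321 for arf-5 and 10.54 ± 0.395 for arf-1. The IP signal of arf-5 (chromosome IV, probe set 175058_at) was 3.77, 5.05 and 6.75 for MYC against 4.68, 6.37 and 7.24 for FLAG, and 5.16, 4.87 and 4.12 for N2 against 6.80, 6.31 and 5.99 for the tagged IP. For both genes the MYC and FLAG groups overlapped and the set 2 groups did not.

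Within every IP group the signals of sar-1, arf-5 and arf-1 had the order of the arrays' ribosomal protein medians, which for MYC were 6.51, 7.71 and 9.4. The signals of rab-11.1 and of the called arl-8 and rab-14 had the same order in every IP group, and the part of background RNA in any of them was not tested. The third of them, arf-1 (chromosome III, probe set 174944_s_at), had 4.05, 4.87 and 5.83 for MYC against 4.01, 5.83 and 6.83 for FLAG, and 5.04, 4.43 and 3.14 for N2 against 5.93, 5.67 and 5.51 for the tagged IP. Changes were 1.23 and 2.16 for sar-1, 0.9 and 1.65 for arf-5 and 0.64 and 1.5 for arf-1, with no adjusted p below 0.341 in the first strategy or 0.144 in the second. Their 95% intervals were wide. In strategy 1 they ran from -0.54 to 3.0 for sar-1, from -0.94 to 2.75 for arf-5 and from -1.08 to 2.36 for arf-1, so these arrays do not exclude a recovery of several fold. The other probe sets of these genes were not called either. For sar-1, 192415_at changed by 0.71 and 0.5 in strategies 1 and 2, and for arf-5, 192156_at by 0.91 and 1.69. For arf-1, 174943_at changed by 0.59 and 1.05, and 187865_at by 0.31 and 0.28. In the representative probe sets all 3 genes had negative changes after quantile normalization and cyclic loess. There arf-5 was called lower in strategy 2 (-0.89, adjusted p = 0.0262, and -1.22, adjusted p = 0.0261). Other alternatives went the opposite way in strategy 2. From the 6 arrays of set 2 alone sar-1 and arf-5 were called higher (adjusted p = 0.0318 and 0.0318), and with array weights sar-1, arf-5 and arf-1 were (adjusted p = 0.00553, 0.0126 and 0.0278). With the replicate number as a block all 3 were called higher too (adjusted p = 0.0122, 0.0103 and 0.0393). That block called 2626 of all probe sets higher and 5529 lower in strategy 2.

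Among the remaining ER and Golgi genes rab-33, a Golgi Rab gene, came closest to a call. Its probe set was weak, at 4.30 ± 0.329 (SD, n = 3) in input, and the IP signals were 2.94, 2.93 and 2.91 for MYC against 3.16, 4.19 and 4.18 for FLAG. In set 2 they were 3.06, 3.51 and 3.13 for N2 against 4.30, 4.16 and 4.16 for the tagged IP. The groups did not overlap in either set. The change was 0.92 ± 0.248 (adjusted p = 0.13) and 0.97 ± 0.248 (adjusted p = 0.0586), and quantile normalization left 0.36 and -0.04. The gene for RAB-1, which guides ER to Golgi transport, was at 8.95 in input and changed by 0.75 and 0.28 (adjusted p = 0.322 and 0.544). The Golgi Rab genes rab-6.1 and rab-6.2 are paralogues. The first stood at 8.92 in input with changes of 0.36 and 0.72 (adjusted p = 0.636 and 0.271), and the second at 5.92 with 0.05 and 0.13 (adjusted p = 0.841 and 0.547). None of their 5 probe sets was called. The Golgi GTPase genes arl-1 and arl-5 stood at 8.96 and 7.75 in input and changed by 0.49 and 0.3 in strategy 1 and by 0.78 and 0.44 in strategy 2, and rab-19, at 7.59 in input, by -0.08 and 0.32; none was called. The remaining genes of the group, rab-18, rab-30 and rab-39, lay at the lowest values of all IP arrays.

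Genes for neuronal secretion and cilia gave little signal. The synaptic vesicle gene rab-3 was at 6.75 in input but at 2.49 to 2.69 on the IP arrays, with changes of 0.08 and -0.03 (adjusted p = 0.322 and 0.703). The secretory gene rab-37 read 2.75 in input, with changes of -0.09 and -0.03. The ciliary genes arl-3, arl-6, arl-13 and rab-28 lay within 0.1 of the lowest value on all 12 IP arrays and, except arl-13, on the inputs too. In these animals fewer cells of a type and less RNA per cell cannot be told apart. Values at the lowest level of an array have no order, so the changes of these genes, from -0.05 to -0.03, give no measure of recovery. In all, 9 members lay at the lowest values on every IP array. Of these rab-39 (6.48) and rab-30 (5.04) were above log2 5 in input.

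Arrays of the 2 groups did not overlap, with the tagged side higher, for 5 of 30 genes in strategy 1 and 13 in strategy 2. The shares over all genes were 5.98 and 14.9%. Of the 15 bright members it was 3 and 11, against 18.2 and 48.6% of bright genes. The 5 of strategy 1 were rab-10, arl-8, rab-14, rab-35 and rab-33. With 3 arrays against 3 an exact two-sided permutation test cannot go below p = 0.1, so the calls rest on the spread that limma shares across probe sets.

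Setting IP against input for each gene showed how far apart the members were. This is a description without a test. IP and input arrays were amplified from different amounts, and the IP samples held added mouse brain RNA. The lowest values of the arrays also bound the difference from below. The calls were made from these same IP values. A gap between called and uncalled genes in the tagged IPs therefore largely follows from the selection and is no further support. Among the 15 members at log2 7 or more in input, the tagged IP of set 2 stood 0.46 below input for arl-8 (a difference of -0.46), and the differences were -1.23 for rab-10, -2.48 for rab-8 and -2.6 for rab-14. The 11 bright members called in neither strategy ranged from -5.63 for rab-1 to -3.38 for rab-11.1, with a median of -4.61. Over all 15 bright members the median was -4.49, against -4.61 over all 4059 bright genes, called ones included. In the N2 IP the called and uncalled genes were mixed, at -6.55 to -5.16 and -6.71 to -4.67. For rab-35, whose input mean was 5.67, the tagged IP was 0.19 below input (-0.19). In set 1 the FLAG IP minus input was -1.66 for arl-8, -1.9 for rab-10, -2.97 for rab-14 and -3.3 for rab-8, against -5.2 to -3.87 for the 11 uncalled genes (median -4.95). The set 1 median was -4.89 over all 15 bright members and -4.62 over all bright genes.

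**Figure D4:**
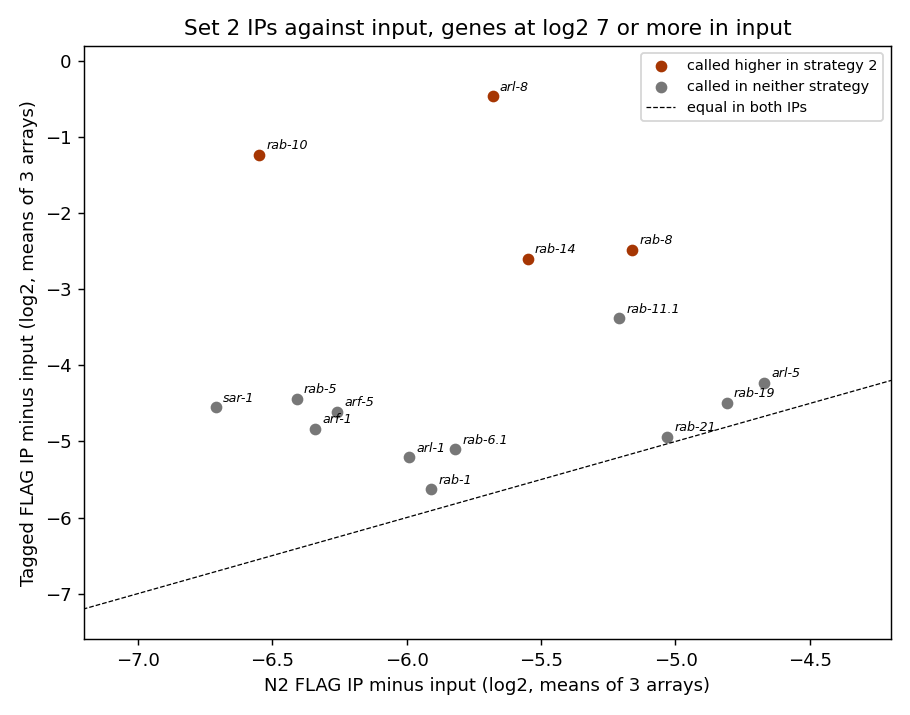
Tagged FLAG IP minus input (vertical axis, log2) against N2 FLAG IP minus input (horizontal axis, log2) for the 15 genes at log2 7 or more in input, as differences between means of 3 arrays. The dashed line marks equal values in both IPs. Highest on the vertical axis are arl-8 (-0.46) and rab-10 (-1.23), also farthest above the line, while uncalled genes lie from -5.63 to -3.38. Calls used these same IP values, so the gap between called and uncalled genes largely follows from the selection.

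The rest of the trafficking machinery was read from 8 lists of genes chosen by general knowledge. Earlier results of these data were known when the lists were drawn up, so their shares of calls are no independent support. The counts of the lists are to be read against the 2.44 and 5.56% of all genes called higher in strategies 1 and 2. Several of the lists, with few genes each, came close to those shares. The lists were brighter in input, with medians of 5.59 to 8.38 against 3.39 over all genes. Genes at log2 7 or more in input were called at 9.07 and 18.9%. The clathrin list (10.5 and 21.1%) lay near these, and the COPI and COPII (0 and 6.67%) and vacuolar sorting (0 and 7.69%) lists lay below them. The list of Rab and Arf relatives named otherwise had 3 measured genes. Of these unc-108, the worm Rab gene that acts with rab-14 in phagosome maturation, changed by 1.9 ± 0.686 in strategy 1, which was not called (adjusted p = 0.283), and by 2.9 ± 0.686 in strategy 2, which was (adjusted p = 0.0434). Of 36 measured Rab regulators and effectors 1 and 3 were higher in strategies 1 and 2 (2.78 and 8.33%), with median changes of 0.02 and -0.01. They were flcn-1, the folliculin gene (2.29 and 3.3, called in both), sand-1, needed for the switch from RAB-5 to RAB-7 on endosomes (2.81 in strategy 2), and tbc-2, which encodes a GTPase-activating protein for RAB-5 (0.81 in strategy 2). Of 13 Arf regulators and effectors 0 and 3 were higher, with medians of 0.11 and 0.09. In strategy 2 they were unc-119, whose product releases lipid-modified cargo under the control of ARL-3 (2.84), and the Arf exchange factor genes efa-6 (2.28) and grp-1 (2.02).

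Of 15 COPI and COPII coat genes 0 and 1 were higher (0 and 6.67%), sec-16A.1 in strategy 2 (0.91 ± 0.172, adjusted p = 0.0154), and the medians were 0.34 and 0.23. In strategy 1 none of them had an unadjusted p under 0.05. Of 19 clathrin, adaptor and dynamin genes 2 and 4 were higher, with medians of 0.25 and 0.38. The epsin gene epn-1, an endocytic adaptor, changed by 3.93 ± 0.307 and 3.4 ± 0.307 (adjusted p = 0.000927 and 0.000527), and the endophilin gene unc-57 by 2.28 and 2.74 (adjusted p = 0.0469 and 0.0108). Of 26 vacuolar sorting and ESCRT genes 0 and 2 were higher (medians 0.3 and 0.25), stam-1 and hgrs-1 in strategy 2 (2.31 and 1.93), which encode partners that sort ubiquitylated cargo at endosomes. Of 13 SNARE and fusion genes 0 and 1 were higher (medians 0.12 and 0.14), the synaptobrevin gene snb-1 in strategy 2 (3.64 ± 0.621, adjusted p = 0.00935).

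The list of endosomal recycling and retromer genes, which also took in exocyst genes and rme-2, held more calls than the other lists. In it 5 and 8 of 23 genes (21.7 and 34.8%) were higher in strategies 1 and 2, and none lower. Its medians were nonetheless only 0.26 and 0.19. The largest changes were those of the yolk receptor gene rme-2 (5.43 and 6.75) and of num-1, the worm Numb gene (3.42 ± 0.531 and 4.81 ± 0.531, adjusted p = 0.0124 and 0.00131). Exocyst genes, whose products tether recycling and secretory vesicles to the plasma membrane, were exoc-7 (2.63 and 3.11), exoc-8 (2.1 and 2.81) and sec-8 (1.08 and 1.1), all called in both strategies, and sec-10 (2.76), called in strategy 2. The recycling gene rme-1 (3.36) and the retromer gene vps-29 (2.25) were also called in strategy 2 alone. Whether lists differed in their share of calls was not tested.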

How the data were processed

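The authors deposited a log2 signal for each probe set on each array, computed with GCRMA (version not stated), per the submitters' processing notes. IP samples received 10 µg of RNA from mouse brain, per the labels' protocols; amplification started from 5 µg of RNA for input and from 1/3 of the RNA of an IP. Groups and replicate numbers came from the sample titles, and 0 columns were without a sample. The lowest value differs between arrays and was left as deposited.

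The 77 control probe sets were removed from the 22625 on the array. Gene symbols came from the platform annotation, and all 30 members were found by Entrez ID in a RefSeq table (WBcel235), the source of their chromosomes. A single limma model (limma 3.58.1, R 4.3.3) of the 12 IP arrays gave both strategies and their difference (two-sided moderated tests, 8 residual and 0.849 prior degrees of freedom), with no filter and no further normalization. P-values were adjusted over 22548 probe sets. The fit was tested on simulated data. Errors of changes are standard errors of the fit.

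Members and lists were chosen with earlier results of these data known. Described on every array were the called members and the 3 uncalled ones brightest in input; rab-5, rab-11.1 and rab-33 were added after their values were seen. From each list the 2 called genes of largest mean change were named; further called genes were named after their values were seen. Listed genes without a probe set under that symbol were left out.

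Alternatives were a replicate block, the 6 arrays of each comparison alone, all 15 arrays, a filter at log2 5 on 3 IP arrays, quantile normalization, cyclic loess, centring on ribosomal protein genes, array weights, a variance trend with robust eBayes, averaging all probe sets of a gene, dropping those with a shared-sequence suffix, and leaving out each replicate.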

Additional observations from a re-analysis of the deposited data

How the results depend on the processing

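The counts of members called higher were 3, 5 and 3 in strategy 1, strategy 2 and both. With 1 array left out they ranged from 1 to 8, from 3 to 7 and from 1 to 7, with the highest counts of strategy 1 and of both without FLAG replicate 1. Over all probe sets the higher calls then ranged from 196 to 2090 in strategy 1 and from 669 to 1933 in strategy 2. From the 6 arrays of each comparison alone the member counts were 0, 10 and 0 (7 members higher in strategy 1 at an unadjusted p under 0.05). With array weights, whose estimation stopped short of its tolerance, they were 17, 13 and 13. Those settings also moved the calls over all 22548 probe sets, to 0 in strategy 1 and 2601 higher and 6460 lower in strategy 2 from 6 arrays, and to 6224 higher and 12432 lower, then 3195 and 7995, with array weights. Array weights also called 1 member in the difference of strategies. The filter at log2 5 kept 9 members, of which 5, 7 and 5 were called, but a probe set high in FLAG IPs alone can pass it, 933 and 1149 of all 1627 kept were called, and the counts support nothing. Cyclic loess left 1 in both, and centring on ribosomal protein genes 2 in strategy 2. Lower calls numbered 10 and 7 with array weights in strategies 1 and 2, 6 in strategy 2 from 6 arrays, 1 in strategy 1 without FLAG replicate 1, 1 and 1 under quantile scaling, and 1 and 2 under cyclic loess. With the replicate number as a block, strategy 2 had 11 higher (arf-1, arf-5, sar-1, rab-11.1, rab-33 and rab-5 beside the 5) and 7 lower, against 2626 higher and 5529 lower over all probe sets. Same-numbered arrays correlated at 0.52, 0.04 and 0.7 in set 1 and 0.08, 0 and 0.24 in set 2. Differently numbered arrays gave -0.7 to 0.43 in set 1 and -0.27 to 0.19 in set 2. The main fit did not take the numbers as pairs, and these correlations do not settle whether same-numbered arrays shared a source of spread.

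Among the 8 genes described on every array by rule, changes turned negative in strategies 1 and 2 after quantile normalization for arf-1 (-1.09 and -0.47), arf-5 (-0.79 and -0.89) and sar-1 (-0.47 and -0.16), and after cyclic loess for arf-1 (-1.13 and -0.91), arf-5 (-1.17 and -1.22) and sar-1 (-0.64 and -0.41). Outside those 8 both changes of rab-11.1 and arl-5 turned negative under each scaling, those of rab-1 under quantile and those of rab-6.1 under loess. The cause was not tested. Over all probe sets the higher and lower calls went from 543 and 13 to 685 and 350 (quantile) or 491 and 366 (loess) in strategy 1, and from 1233 and 39 to 962 and 579 or 998 and 598 in strategy 2. Of 366 values of the 8 genes, 307 kept direction and side of the threshold. Signal near the lowest value of the IP arrays limits what could be seen for 9 members.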
